A study of Mus musculus with 2 samples.

Results

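The genes described here are the hypoxia-inducible factor (HIF) subunits, the enzymes that hydroxylate and degrade them, the enzymes of glycolysis and lactate formation, and a set of HIF target genes. They were chosen by name, as 34 symbols, and their value was read on both arrays of a study of testosterone and estradiol in mouse urogenital sinus mesenchyme (UGM). Of the 34 symbols, 31 had a probe set annotated to them alone, out of 18193 genes on the array. Gpi1, Eno1 and Bnip3l had none and are not analysed here. A log2 intensity of 5 on at least 1 array was required to call a gene measured, and 29 of the 31 met it. Pfkfb4 and Aldoc lay under this floor on both arrays.

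The T+E2 culture was UGM cells of male C57BL/6 mice, given as day 16, kept for 72 h with 12 nM testosterone (T) and 120 pM estradiol-17 beta (E2). Its control was UGM cells of the same strain, sex and age, untreated for the same time. Both groups received RPMI medium with Plasmocin, an antibiotic, at 5 µg/ml and with 5% serum that charcoal had stripped of most steroids. The sample titles carry 24 h in place of 72 h. The descriptions give the untreated culture as confluent and the T+E2 culture as nearly so, while the growth protocol gives 80% for both, so density and hormone cannot be told apart. Each group was 1 culture on 1 array, without replicates, and no value below can be set against a spread between cultures.

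HIF is a transcription factor made of an oxygen-regulated alpha subunit (HIF-1 alpha, from Hif1a, or HIF-2 alpha, from Epas1) and the stable partner encoded by Arnt. When oxygen is present, prolyl hydroxylases (Egln1, Egln2, Egln3) mark the alpha subunit for ubiquitination by the complex that contains Vhl, and the asparaginyl hydroxylase Hif1an blocks its coactivator contact. When oxygen is scarce, HIF raises transcription of glycolytic enzymes, of lactate dehydrogenase A and of kinases that keep pyruvate out of the mitochondria. HIF is regulated mainly at the level of the protein, and only transcripts were measured here.

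HIF binds a short core, ACGTG or GCGTG, in its target promoters and enhancers. These letters were searched on both strands in the 250 bases upstream of the transcript starts of the RefSeq promoter table (GRCm38.p6). The table held 45 windows for 31 of the 34 symbols; Epas1, Ndrg1 and Bnip3l were without an entry. At least 1 core was found in 35 of the 45 windows (77.8%), against 38.6% of all 32851 windows in the table. Some windows of 1 gene overlap, as in Eno1, Aldoa and Pfkm, so the same core can be counted more than once. By gene, 26 of 31 had a core (83.9%), against 41.5% of all 27025 genes. The windows were not matched for base composition. Nor were genes matched for their number of windows, 45 for 31 members and 32851 for all 27025 genes. The list was chosen by name and includes known HIF targets, so its share of cores is not an independent result. ACGTG overlaps the E-box CACGTG, which many other factors bind, and CACGTG was found in 6 of the 45 windows (13.3%), against 6.02% of all windows. The palindromes of the androgen and estrogen response elements were built from the motifs AGAACA and AGGTCA, each followed after 3 free bases by its reverse complement. They were found in 0 of the 45 windows, and in 0.00913% and 0.0213% of all windows. A match is a description of the letters in these windows and not evidence of binding.

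The upstream windows of 4 members are printed because they hold the ACGTG core and because the genes differed in how their transcripts stood with T+E2: Hk2 was higher, Pgk1 and Ldha were close to 0 and Bnip3 was the lowest member. Capitals mark the cores, which read CACGT or CACGC where they lie on the opposite strand and CACGTG where both strands match. Each runs 5′ to 3′ toward the transcript start on the gene's own strand, and that of Ldha is the first of its 2 windows.
Hk2 (chr6:82774455-82774704, minus strand): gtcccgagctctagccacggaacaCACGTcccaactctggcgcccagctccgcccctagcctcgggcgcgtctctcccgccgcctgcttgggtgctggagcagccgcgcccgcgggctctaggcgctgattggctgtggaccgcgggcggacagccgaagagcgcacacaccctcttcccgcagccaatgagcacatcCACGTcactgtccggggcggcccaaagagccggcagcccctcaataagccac
Pgk1 (chrX:106186850-106187099, plus strand): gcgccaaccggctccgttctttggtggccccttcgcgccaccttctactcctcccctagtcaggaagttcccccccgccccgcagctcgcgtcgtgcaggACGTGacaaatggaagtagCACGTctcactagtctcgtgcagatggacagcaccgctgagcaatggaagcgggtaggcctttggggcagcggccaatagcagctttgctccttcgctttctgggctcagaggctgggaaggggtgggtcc
Ldha (chr7:46845554-46845803, plus strand): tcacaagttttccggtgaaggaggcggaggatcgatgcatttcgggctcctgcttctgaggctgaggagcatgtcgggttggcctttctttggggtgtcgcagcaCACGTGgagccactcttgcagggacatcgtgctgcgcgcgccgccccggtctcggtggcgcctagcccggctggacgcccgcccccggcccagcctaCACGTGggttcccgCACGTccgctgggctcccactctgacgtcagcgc
Bnip3 (chr7:138909507-138909756, minus strand): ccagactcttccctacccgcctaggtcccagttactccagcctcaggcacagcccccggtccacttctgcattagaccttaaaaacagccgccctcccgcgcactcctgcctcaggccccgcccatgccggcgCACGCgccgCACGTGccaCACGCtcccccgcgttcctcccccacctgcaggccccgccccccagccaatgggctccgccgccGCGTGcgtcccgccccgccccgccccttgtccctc

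**Figure D1:**
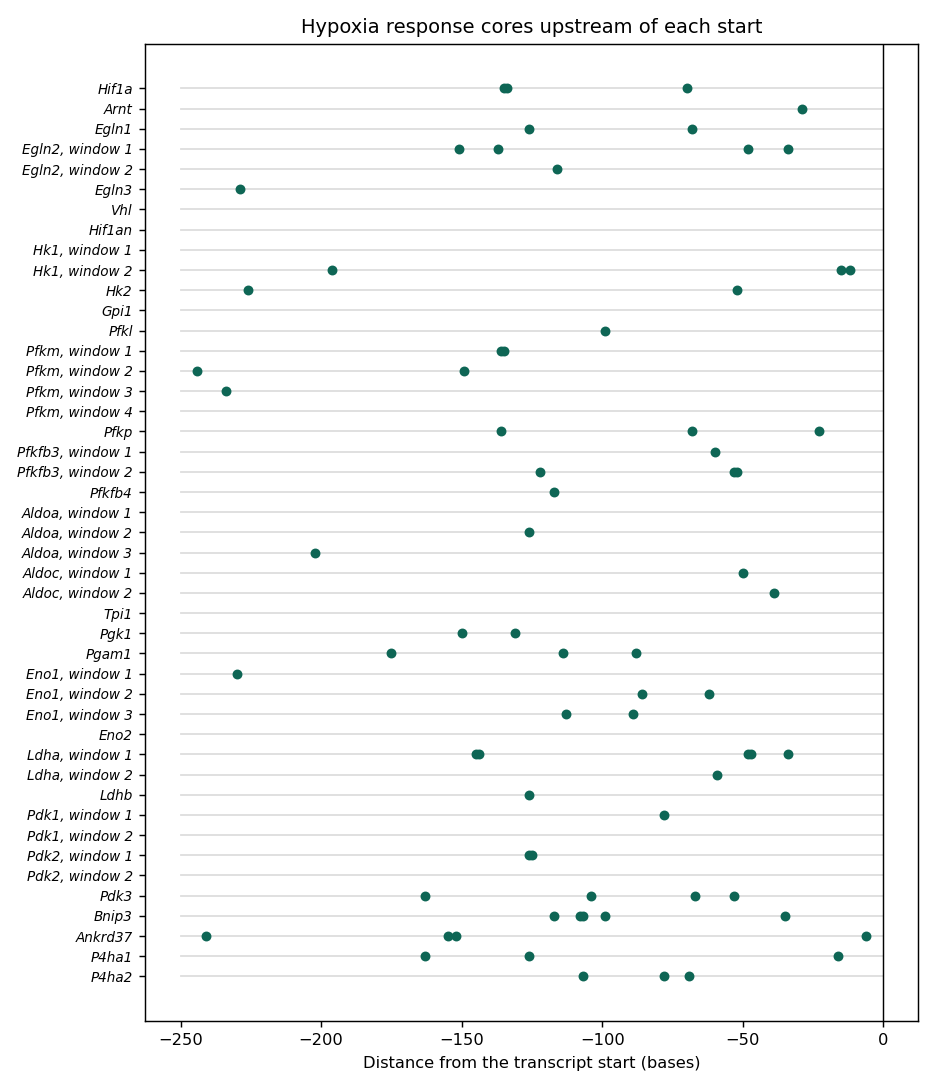
Each line is the 250 bases upstream of a transcript start of a member gene, and each dot the first base of an ACGTG or GCGTG core on either strand; the x axis is the distance from the start in bases, and genes with several starts have a line for each. Of the 45 windows, 35 hold at least 1 core, and Ldha and Bnip3 each have a window with 5 matches.

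Of the 29 measured members, Epas1, Hk2 and Hk1 were 2-fold higher or more with T+E2. These 3 made up 10.3%, and the background over all 10267 genes measured was 4.96%. None was at least 2-fold lower, where the background was 4.01%. At 1.5-fold, 7 were higher (24.1%) against a background of 17.1%, and 2 were lower (6.90%) against 14.1%. The 4 added on the higher side were Pfkfb3, Egln1, Pdk2 and Egln3, and the 2 lower ones were Bnip3 and Ankrd37. These counts use 1 probe set a gene. With the mean of measured probe sets Ldhb (-0.70) and Pdk1 (-0.60) also passed 1.5-fold on the lower side, and Hif1an (0.81) on the higher side. This mean was taken before the floor was applied. It includes a reading under the floor for Pdk1 (29.5 with T+E2) and for Hif1an (15.3 in untreated cells). With the floor applied to each probe set, the 2 measured Hif1an probe sets differed by 0.31 and 0.24, both under 1.5-fold. With the trend on genomic span described below removed, 6 were at least 1.5-fold higher, where the background was 11.5%, and 1 (Bnip3) lower, where it was 14.4%.

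The median log2 difference, T+E2 minus untreated, was 0.12 over the 29 members and 0.07 over all measured genes. In the members 19 of 29 lay above 0 (65.5%), against 55.8% of all measured genes. A difference within 0.5 of 0 on the log2 scale was seen in 20 of the 29 (69.0%), against 61.0% of all measured genes. These shares stood near those of all measured genes.

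**Figure D2:**
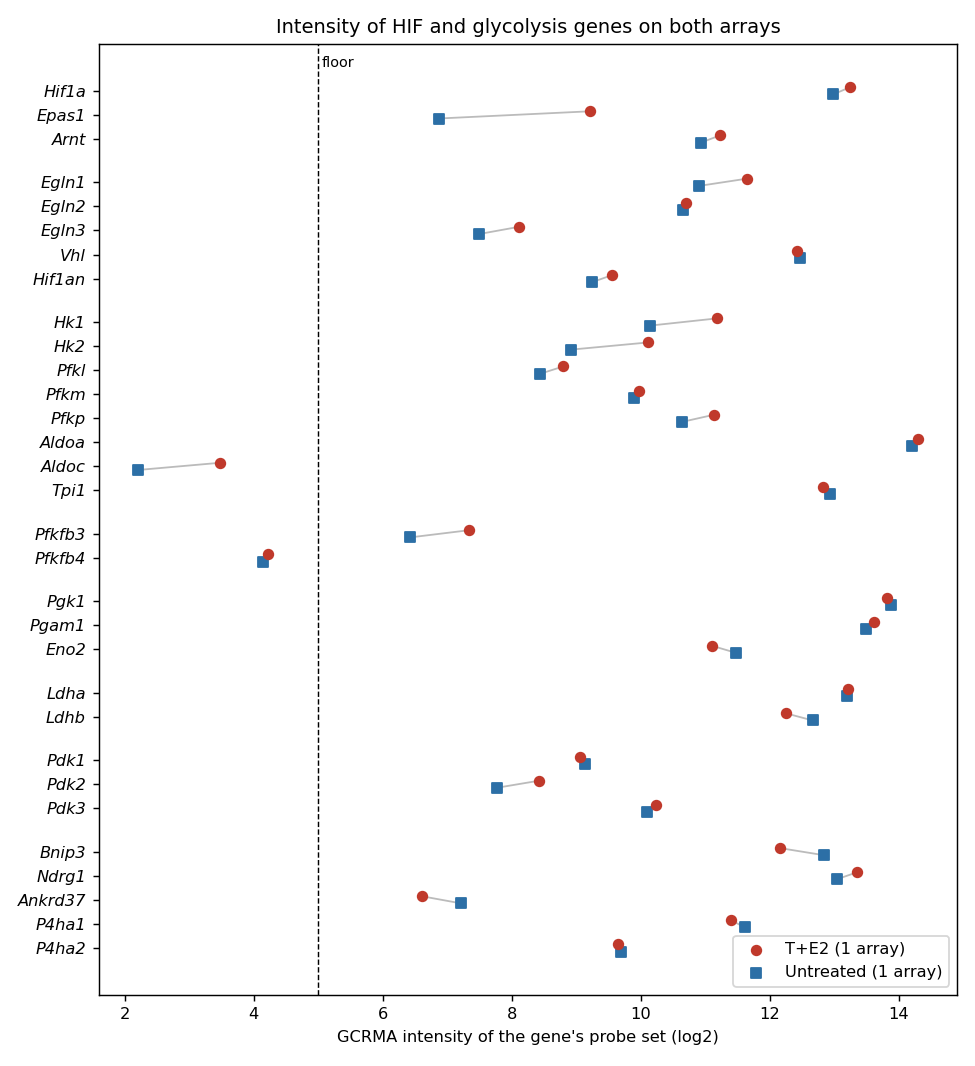
The x axis is the GCRMA intensity (log2) of the probe set that gives each gene's value, with the T+E2 array as circles above the untreated array as squares, and genes are grouped by role. The dashed line is the floor of 5; the widest gap among measured genes is that of Epas1, at 9.22 with T+E2 and 6.87 in untreated cells.

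Measures of the arrays as a whole were read beside these values. The 18 hybridization spike probe sets differed by -0.25 to 0.09 (log2), with an SD of 0.12, and the median SD between measured probe sets of 1 gene was 0.22. The control probe sets of Gapdh, the glycolytic dehydrogenase that follows triosephosphate isomerase, were higher with T+E2 by 0.19 at the 3′ end, 0.22 in the middle and 0.26 at the 5′ end. The drop from the 3′ to the 5′ end of Gapdh was 1.11 with T+E2 and 1.19 in untreated cells. The 18S ribosomal RNA control probe sets were lower with T+E2, with log2 differences of -0.62 to -1.58. The difference between the arrays was also larger for genes with a longer genomic span (the length of a gene from first to last base), and values are also given below with that trend removed where this takes a gene across 2-fold or 1.5-fold. The part of RNA composition and span in any difference was not tested.

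The HIF subunits were led by Epas1, which encodes the alpha subunit HIF-2 alpha. Its intensity was 595 with T+E2 and 117 in untreated cells, 5.09-fold higher (log2 difference 2.35). Only 23 of the 10267 measured genes had a larger positive difference. With the span trend removed it was 4.06-fold higher (2.02). A second Epas1 probe set was at background, at 4.30 with T+E2 and 4.28 in untreated cells, so the difference rests on 1 probe set. The mean of both probe sets, with the untreated mean raised to the floor, gave 0.66 (log2), under 2-fold.

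Hif1a, which encodes the more widely expressed HIF-1 alpha, had an intensity of 9712 with T+E2 and 8090.2 in untreated cells (log2 difference 0.26). Its other 2 measured probe sets differed by 0.45 and 0.68, on the same side. Arnt, the shared partner, was at 2404 with T+E2 and 1958 in untreated cells (0.30), and its 3 measured probe sets lay between 0.25 and 0.30. With the span trend removed Hif1a stood at 0.09 and Arnt at 0.04. Of the alpha subunit genes, Epas1 had the wide gap between arrays and Hif1a a narrow one.

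Epas1 is known for high expression in endothelium, and a marker list of that cell type was read beside it. Of 15 endothelial markers, 11 lay under the floor on both arrays, among them Pecam1, Cdh5, Kdr, Cldn5 and Vwf, the highest of the 11 at 4.19 (log2) with T+E2 and 3.51 in untreated cells. The 4 measured were Tek, Flt1, Egfl7 and Eng. The VEGF receptor gene Flt1 was 2.87-fold higher with T+E2, Eng 1.41-fold and Tek 1.15-fold, and Egfl7 was lower (log2 difference -0.30). With the span trend removed 2 of the 4 lay above 0 and 2 below. The summed intensity of the list was 1765 with T+E2 and 1365 in untreated cells, of which Tek gave 1040 and 904. In such bulk samples more cells of a type and more RNA per cell cannot be told apart.

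The mesenchymal identity given by the labels was read the same way. Of 16 mesenchyme markers on the array, 12 were measured, including Vim, Col1a1, Pdgfra and Foxf1, and the gene values of all 12 lay above 0. Of these 10 stayed above 0 with the span trend removed, and Prrx1 (-0.27) and Twist2 (-0.16) did not. By gene value Foxf2, a forkhead factor gene, was the 1 marker of the list past 2-fold. It was 2.43-fold higher with T+E2, at an intensity of 90.6 against 37.3 in untreated cells. Other measured probe sets stood elsewhere, with Acta2 up to 1.53, Col1a2 down to -1.98 and Prrx1 down to -0.09 (log2 difference). The caudal Hox genes Hoxa13 and Hoxd13, the growth factor gene Fgf10 and Thy1 were under the floor on both arrays. Of the epithelial markers 2 of 12 were measured, and of these Cdh1 was 4.59-fold higher with T+E2, at an intensity of 190 against 41.4 in untreated cells. The other, Trp63, was 1.38-fold higher. With the span trend removed Cdh1 stood at 1.92 and Trp63 at -0.06. The summed epithelial intensity was 587 with T+E2 and 342 in untreated cells. Of the neural and Schwann markers 2 of 10 were measured, with a summed intensity of 2493 with T+E2 and 1387 in untreated cells. Most of that sum was Ncam1, at 2326 with T+E2 and 1214 in untreated cells (log2 difference 0.94, and 0.34 with the span trend removed). The other, S100b, differed by -0.16. Of the skeletal muscle markers 1 of 10 was measured, with a summed intensity of 216 with T+E2 and 275 in untreated cells. The part of other cell types in the differences was not tested.

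Among the genes that restrain HIF, Egln1 and Egln3 passed 1.5-fold and none passed 2-fold. Egln1, the main oxygen-sensing prolyl hydroxylase, was at 3195 with T+E2 and 1917 in untreated cells (1.67-fold, log2 difference 0.74), with a second probe set at 0.46. Egln3, a hydroxylase that is itself a HIF target, was at 276 with T+E2 and 180.1 in untreated cells (1.53-fold, 0.62). Its second probe set was at 290.03 with T+E2 and 144 in untreated cells (1.01), so it passed 2-fold at 1 probe set and not at the other.

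Egln2 was at 1669.7 with T+E2 and 1615 in untreated cells (0.05), and Vhl, the substrate receptor of the ubiquitin ligase, was at 5515 with T+E2 and 5683 in untreated cells (-0.04). Hif1an was at 755 with T+E2 and 607 in untreated cells (0.31). A dimmer Hif1an probe set crossed the floor only with T+E2, at 37.7 against 15.3 in untreated cells. Of the 5 hydroxylase and degradation genes, 4 lay above 0, and the values of Egln2 and Vhl were within the range of the spike differences.

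**Figure D3:**
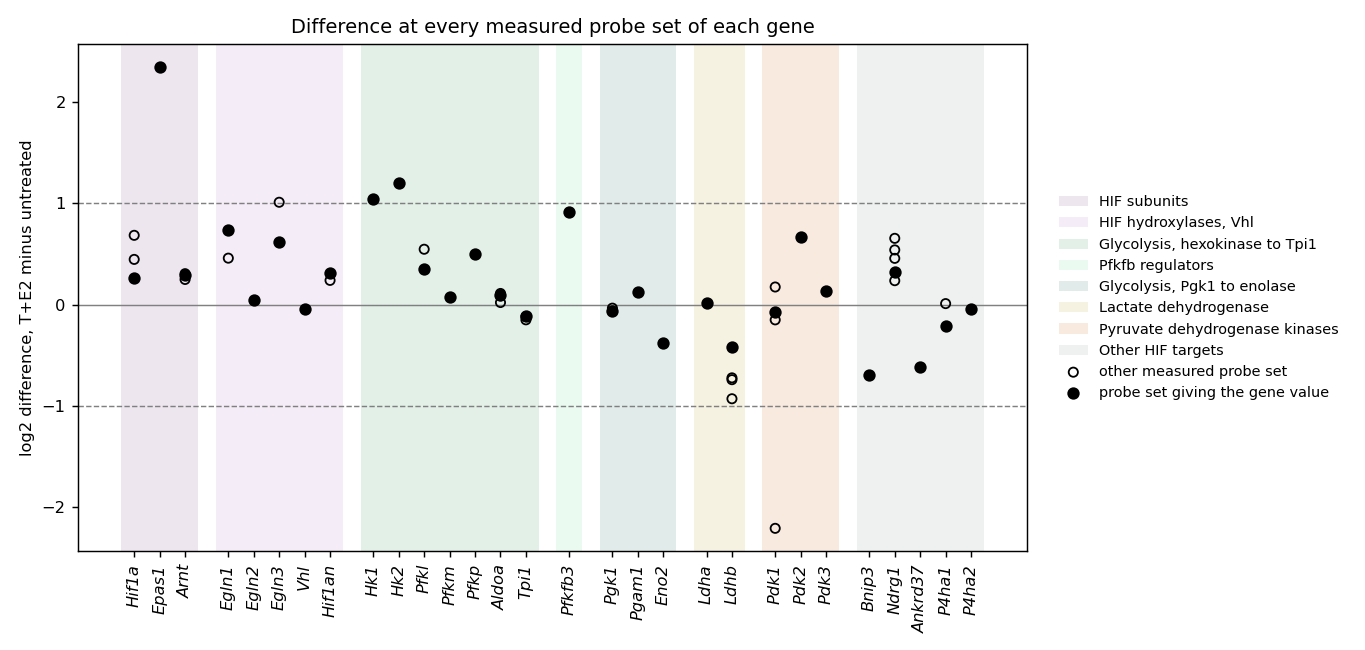
The y axis is the log2 difference, T+E2 minus untreated, at each measured probe set, filled for the probe set that gives the gene value and open for the others; shading marks the roles and dashed lines mark 2-fold. Egln3 has a probe set on either side of 2-fold, the 4 probe sets of Ldhb all lie below 0, and 1 of 4 probe sets of Pdk1 lies at -2.21.

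Glycolysis begins with hexokinase, which traps glucose in the cell as its phosphate. Both hexokinase genes passed 2-fold. Hk2, the inducible form found in muscle and in growing cells, was at 1113 with T+E2 and 484 in untreated cells (2.30-fold, log2 difference 1.20). This rests on 1 probe set, the only one of Hk2, and 285 of the measured genes had a larger positive difference. Hk1, the form present in most tissues, was at 2336 with T+E2 and 1137 in untreated cells (2.05-fold, 1.04). Its other probe set was under the floor on both arrays.

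The span trend separated them. Hk2 stood at 1.01 with the trend removed, just past 2-fold, and Hk1 at 0.63. With differences centred on the median gene Hk1 was at 0.97, also under 2-fold. The Hk2 window printed above holds 2 ACGTG cores, and 1 of the 2 Hk1 windows holds 3 GCGTG cores and the other none.

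Phosphofructokinase, the committed step, has a liver, a muscle and a platelet form. Pfkp, the platelet form, was at 2261 with T+E2 and 1599 in untreated cells (0.50). Pfkl, the liver form, was at 445 with T+E2 and 348 in untreated cells (0.35), and Pfkm, the muscle form, was at 1003 with T+E2 and 949 in untreated cells (0.08). All 3 lay above 0 and under 1.5-fold, and with the span trend removed Pfkm stood at -0.05.

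Pfkfb3 encodes the enzyme that makes the strongest activator of phosphofructokinase. Its intensity was 162 with T+E2 and 85.7 in untreated cells (1.89-fold, log2 difference 0.92), just under 2-fold. Removal of the span trend left it 1.498-fold higher (0.58), just under 1.5-fold. Its relative Pfkfb4 was under the floor at 18.6 with T+E2 and 17.8 in untreated cells.

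The enzymes that follow, from aldolase to enolase, stood close together on the arrays. Aldoa, the main aldolase of most cells, was at 20238 with T+E2 and 18926 in untreated cells (0.10), and its 5 probe sets lay between 0.02 and 0.11. All 5 are of the kind whose probes may also bind related transcripts. The brain form Aldoc was under the floor, at 11.1 with T+E2 and 4.60 in untreated cells. Tpi1, triosephosphate isomerase, was at 7226 with T+E2 and 7836 in untreated cells (-0.12), with its 3 probe sets between -0.15 and -0.12.

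Pgk1, the phosphoglycerate kinase that makes the first ATP of the pathway, was at 14365 with T+E2 and 15033 in untreated cells (-0.07). Its 3 probe sets lay between -0.07 and -0.04, and 2 ACGTG cores lie in the window printed above. Pgam1, phosphoglycerate mutase, was at 12535 with T+E2 and 11499.6 in untreated cells (0.12). Eno2, the enolase known from neurons, was at 2203 with T+E2 and 2866 in untreated cells (-0.38). Of the 7 measured enzymes from hexokinase to triosephosphate isomerase 6 lay above 0, with a median of 0.35, and of the 3 from Pgk1 to enolase 1 did, with a median of -0.07.

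Lactate dehydrogenase returns the pathway's NADH to NAD. Ldha, the A subunit and a standard HIF target, was at 9460.5 with T+E2 and 9389 in untreated cells (0.01). Its printed window holds 5 core matches, 4 of them in the 2 E-boxes. Ldhb, the B subunit, was at 4854 with T+E2 and 6491 in untreated cells (-0.42). The other 3 Ldhb probe sets differed by -0.72, -0.74 and -0.93, so all 4 lay below 0 and the one that gives the gene value differed least. The mean of the 4 was -0.70.

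Pyruvate dehydrogenase kinases switch off the enzyme that feeds pyruvate to the mitochondria. Pdk2 was at 345 with T+E2 and 218 in untreated cells (1.59-fold, 0.67), with 1 probe set. Pdk3 was at 1204 with T+E2 and 1096 in untreated cells (0.14), and at -0.14 with the span trend removed. Pdk1, a HIF target, was at 534 with T+E2 and 563 in untreated cells (-0.08).

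The 4 measured probe sets of Pdk1 disagreed. The other probe sets were at 300.3 with T+E2 and 266 in untreated cells (0.17), at 126 with T+E2 and 140.3 in untreated cells (-0.15), and at 29.5 with T+E2 against 148 in untreated cells. The last lay under the floor with T+E2 and differed by at least -2.21, measured against the floor. The mean of all 4, taken before the floor was applied, was -0.60.

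The last members are 5 measured HIF targets of other functions. Bnip3, a mitophagy receptor induced by low oxygen, was at 4557 with T+E2 and 7361 in untreated cells (log2 difference -0.69), the lowest of the 29. Ankrd37 was at 97.3 with T+E2 and 149 in untreated cells (-0.61), and at -0.42 with the span trend removed, which is under 1.5-fold. Of the collagen prolyl hydroxylase subunits, P4ha1 was at 2709 with T+E2 and 3139 in untreated cells (-0.21), with a second probe set at 0.01, and P4ha2 at 804 with T+E2 and 832 in untreated cells (-0.05). Ndrg1, a stress-responsive gene, was at 10515 with T+E2 and 8409 in untreated cells (0.32), and all 5 of its probe sets lay above 0, between 0.24 and 0.65.

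Of the 5 genes, 4 lay below 0, and the median was -0.21. The values of P4ha1 and P4ha2 were within the range of the spike differences, and that of P4ha2 changed sign with the processing. Bnip3 and Ankrd37 have 1 probe set each. Their upstream windows hold 5 and 4 core matches.

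**Figure D4:**
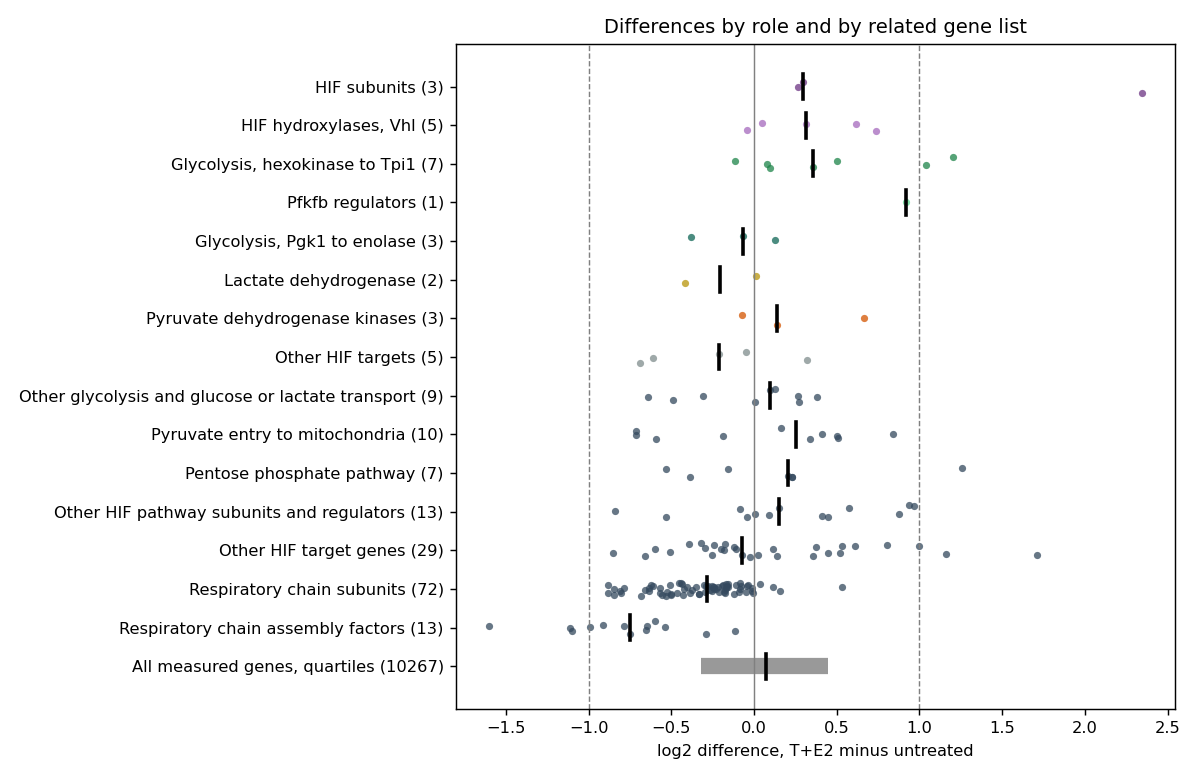
The x axis is the log2 difference, T+E2 minus untreated; each dot is a measured gene, the black bar the median of its group and the number in brackets the genes measured. The grey bar spans the quartiles of all 10267 measured genes (-0.32 to 0.45), and dashed lines mark 2-fold. Left of 0 lie 68 of the 72 respiratory chain subunits and all 13 assembly factors read here (Ndufaf and Sdhaf symbols, and Cox7a2l).

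Further genes of the pathways were read as lists. Of 9 measured genes of other glycolytic steps and of glucose or lactate transport, 0 were 2-fold higher and 0 lower, with a median of 0.10. The glucose transporter gene Slc2a1, a HIF target, was at 10018 with T+E2 and 8287 in untreated cells (0.27), with 3 probe sets between 0.27 and 0.39. Pkm, pyruvate kinase, was at 8151 with T+E2 and 7613 in untreated cells (0.10). By gene value Bpgm, which diverts a glycolytic intermediate, was farthest from 0, at 982 with T+E2 and 1533 in untreated cells (-0.64). The 2 measured probe sets of Tigar disagreed. The one that gives the gene value was at 0.38, and the other at -2.075, past 2-fold on the lower side.

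Of 29 other measured HIF targets, 2 passed 2-fold on the higher side, where the background was 4.96%. On the lower side 0 did, where it was 4.01%, and the median was -0.07. Edn1, the endothelin-1 gene, was at 227 with T+E2 and 69.4 in untreated cells (3.27-fold), and Gys1, glycogen synthase, at 122 with T+E2 and 54.4 in untreated cells (2.23-fold). Gys1 was under 2-fold with a floor of 6 and under the mean of all its probe sets, of which 1 of 2 was measured. Gbe1, the glycogen branching enzyme, was at 98.0 with T+E2 and 49.0 in untreated cells, just under 2-fold, and its log2 difference was 0.44 with the span trend removed. The angiogenic target Vegfa was at 500.01 with T+E2 and 492 in untreated cells (0.02), and Adm, adrenomedullin, at 7943 with T+E2 and 8093 in untreated cells (-0.03). Fam162a and Higd1a, which encode mitochondrial proteins induced by low oxygen, differed by -0.85 and -0.66. With the span trend removed they stood at -0.89 and -0.53, which put Higd1a under 1.5-fold. Slc6a6 (0.80, and 0.50 with the span trend removed) and Ak4 (0.37) were under 2-fold by gene value. Each had a measured probe set past 2-fold, at 1.52 and 1.16.

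Of 13 other measured HIF subunits and regulators, 0 were 2-fold higher and 0 lower, with a median of 0.15. The alternative partner gene Arnt2 was at 201 with T+E2 and 103 in untreated cells (0.97), from 1 measured probe set, and the coactivator genes Ep300 and Crebbp differed by 0.94 and 0.88. Cul2, the cullin of the Vhl complex, was at 1441 with T+E2 and 2582 in untreated cells (-0.84), and its second probe set differed by -0.14. With the span trend removed these 4 stood at 0.48, 0.67, 0.43 and -1.05, which put Cul2 past 2-fold on the lower side at the brighter of its probe sets.

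Of 10 measured genes that govern pyruvate entry to the mitochondria, 0 were 2-fold higher and 0 lower, with a median of 0.25. Pdp2, a phosphatase that opposes the kinases, was farthest from 0, at 500.3 with T+E2 and 280 in untreated cells (0.84). Mpc1, a subunit of the mitochondrial pyruvate carrier, differed by -0.71. Of 72 measured subunits of the respiratory chain and ATP synthase, 68 lay below 0 and 4 above, with a median of -0.29, and 0 were 2-fold higher or lower. Of the 72, 56 lay below 0 with the span trend removed, with a median of -0.15, and 1 was 2-fold lower (Ndufs4, at -1.23). Assembly factors, which help to build the complexes, were read as symbols starting Ndufaf or Sdhaf, and Cox7a2l. Those with other names were not looked up. All 13 measured lay below 0, with a median of -0.75. Of these 3 were 2-fold lower, Ndufaf5 (-1.60), Ndufaf6 (-1.11) and Sdhaf3 (-1.10), where the background was 4.01%. With the span trend removed 12 of 13 lay below 0. Then 4 were 2-fold lower, Ndufaf2 (-1.05) besides these 3, where the background was 4.23%. The members' median stood above that of the subunits by either measure, at 0.12 and at 0.11 with the trend removed, a difference that 1 array a group leaves untested.

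**Figure D5:**
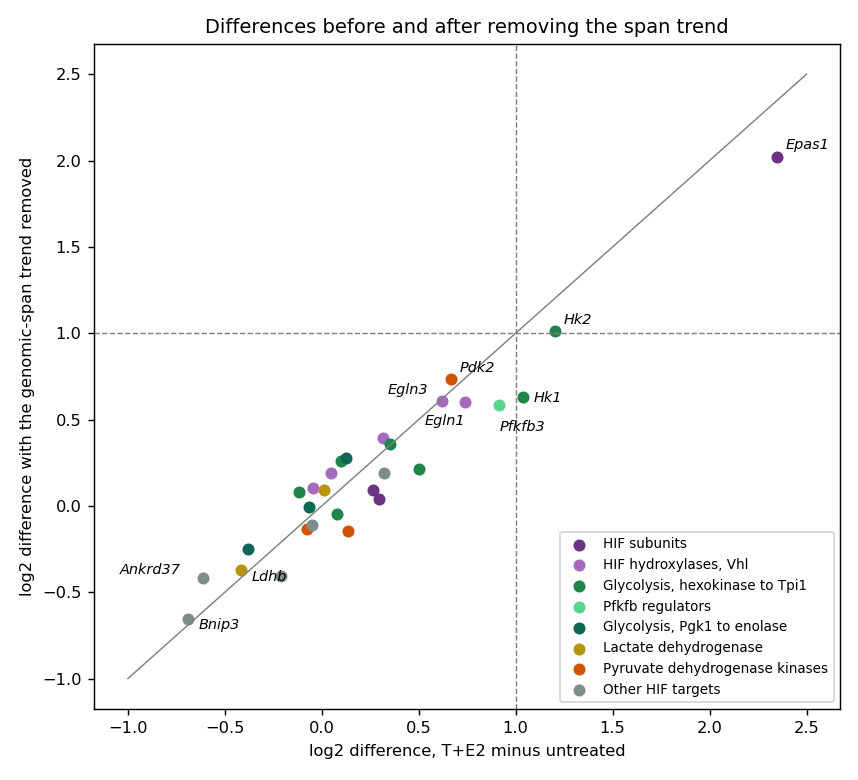
The x axis is the log2 difference, T+E2 minus untreated, and the y axis the same difference after its trend with genomic span over all measured genes was removed; each dot is 1 of the 29 measured members, coloured by role, and dashed lines mark 2-fold. Epas1 (2.02) and Hk2 (1.01) stay past 2-fold on the y axis and Hk1 (0.63) does not.

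With the span trend removed, 2 of the 29 members were at least 2-fold higher, where the background was 2.96%, and 0 were lower, where it was 4.23%. The members' median genomic span was 24894 bases and that of all measured genes 24437 bases.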

How the data were processed

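Per the labels' protocols, RNA came from an Omega Bio-Tek extraction and NuGEN kits turned it into biotinylated cDNA. The authors deposited 1 intensity per probe set and array, on a linear scale, made with GCRMA per the submitters' processing notes. GCRMA corrects background by probe sequence, quantile-normalizes and summarises probe sets; its version was not given in the sources used. Here log2 was taken with no further scaling. Both arrays were raised to a floor of 5 before T+E2 minus untreated was formed. Where probe sets were averaged, the mean was taken before the floor was applied. Of 45101 probe sets, 34945 named 1 gene, 932 several, 9160 were unnamed here and 64 were controls. Symbols were updated through RefSeq gene identifiers (GRCm38.p6). The gene value is the probe set with the highest mean log2 over both arrays. With 1 array per group no test was run and no p-value computed; the number of arrays limits precision. The code for the counts and the span trend (lowess, fraction 0.3, statsmodels 0.14.6) was run on simulated data. The noise there was set in advance and dim genes were left out. It is a check of the code and says nothing about the spread between cultures. Members were fixed by name and described by role, and from the other pathway lists the genes at least 2-fold different, or else the one farthest from 0, were to be named, and the respiratory chain only as counts and medians; Slc2a1, Pkm, Gbe1, Vegfa, Adm, Fam162a, Higd1a, Ep300, Crebbp, Cul2, Mpc1, Ndufs4, the assembly factors, their split from the subunits and the cell type markers named were chosen after their values were seen. Tigar, Slc6a6, Ak4 and Car12 were also named after their values were seen. The members and lists were chosen with earlier results of these data known. Alternatives covered the floor, probe set choice, scaling and span.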

Additional observations from a re-analysis of the deposited data

How the results depend on the processing

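Epas1, Hk2 and Hk1 made up the 2-fold higher count under floors of 4 and 6, the mean of measured probe sets, probe sets without an s or x suffix and centring on the spikes. The count was 4 without a floor, which added Aldoc, and 2 under the mean of all probe sets (without Epas1), centring on the median gene and removal of the span trend (both without Hk1). It was 7 higher and 2 lower at 1.5-fold. With the span trend removed it was 6 higher (without Pfkfb3) and 1 lower (without Ankrd37) at 1.5-fold, an alternative chosen after seeing the data. The 1.5-fold counts depend on the choice of probe set. The mean of measured probe sets also took Ldhb and Pdk1 past 1.5-fold on the lower side and Hif1an on the higher side. For Pdk1 and Hif1an that mean holds a reading under the floor, averaged before the floor was applied. The lower count was 0 under every alternative at 2-fold. The members' median ran from 0.05 to 0.17. Among other pathway genes, 3 were 2-fold higher (Edn1, Gys1, H6pd). The count was 5 with centring on the spikes, 2 with a floor of 6 (without Gys1) and 3 under the mean of all probe sets (Crebbp in place of Gys1). It was 4 without a floor (with Car12) and 4 under the mean of measured probe sets (with Slc6a6). Probe sets without an s or x suffix also gave 4 (with Ak4). Of the same genes 0 were lower, and 1 (Cul2) with the span trend removed. Of the 29 members, 15 stayed above 0, 7 stayed below and 7 changed sign, these last all between -0.19 and 0.19. No paired analysis was possible because each group has 1 array. Floor values carry no order, and Pfkfb4 and Aldoc are limited by signal over background.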

Other observations

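In the pentose phosphate pathway, which branches from glycolysis at glucose 6-phosphate, 1 of 7 measured genes passed 2-fold on the higher side and 0 on the lower side, and the median was 0.21. This gene was H6pd, which encodes the enzyme that starts the pathway inside the endoplasmic reticulum, at 1236 with T+E2 and 516 in untreated cells (2.39-fold), from 1 probe set. With the span trend removed it stood at 1.21.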
